A study of Homo sapiens with 6 samples.

Results

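The genes described here are 10 members of the epidermal growth factor (EGF) family and its receptors, 7 ligand genes (HBEGF, AREG, EREG, TGFA, EPGN, BTC and NRG1) and 3 receptor genes (EGFR, ERBB2 and ERBB3), given by name among the 60663 genes used from a table of raw counts. RNA was sequenced from 5637, an established bladder cancer cell line, 48 h after transfection. According to the series text all cells received dCas13b-FTO, in which the RNA demethylase FTO is joined to a Cas13b that binds RNA by its guide but no longer cuts it, so this agent was shared by both groups; the sample titles name dCas13b without FTO, while the columns of the table name FTO. The control group (3 libraries) received a control guide RNA and the other group (3 libraries) a guide against HRAS. Nothing in the labels makes the 3 libraries of a guide separate cultures, and the p-values below then rest on a spread between libraries that may be technical.

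Ligands of this family are made as membrane-anchored precursors, which proteases of the ADAM family cut to release the soluble growth factor. The ligands bind receptors of the ERBB family of tyrosine kinases, which pair up and signal through RAS, RAF, MEK and ERK, and ERK in turn induces transcription of some of the same ligand genes. EGFR binds EGF-type ligands, ERBB3 binds neuregulins but has little kinase activity of its own, and ERBB2 binds no known ligand and serves as a partner for the others. Normal urothelium and bladder cancers are known to express EGFR and its ligands, and HRAS, the gene the guide was aimed at, encodes a GTPase downstream of these receptors.

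Library totals ran from 24968702 to 32283370 counts. All 10 epithelial marker genes on a list, among them KRT5, KRT7 and EPCAM, were above 1 CPM (a gene's share of a library's counts, scaled by TMM factors) on average. The immune markers together reached at most 0.435 CPM in any library, with PTPRC and CD3E at 0 in the control libraries, and COL1A1 was the fibroblast gene with appreciable RNA (175 ± 30.9 and 165 ± 22.8 CPM with the control and HRAS guide, SD, n = 3). HRAS itself stood at 182 ± 43.7 CPM under the control guide and 184 ± 16.5 CPM under the HRAS guide (SD, n = 3), a log2 fold change of 0.01 ± 0.15 (SE, and 0.07 ± 0.05 with the offsets described next). The libraries also differed in how expression followed the GC content of transcripts. Across genes, Spearman's rho of transcript GC content with the deviation of a library from the mean log2 CPM was lowest in HRAS guide replicate 2 (-0.49) and highest in control replicate 2 (0.61). Comparisons of the members are therefore given both on TMM-scaled counts and with offsets for GC content and transcript length. Differences are log2 fold changes, HRAS guide minus control guide, tested by edgeR's quasi-likelihood F-test with Benjamini-Hochberg adjustment over all genes and a threshold of 0.05.

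The promoters of 3 ligands are shown because HBEGF was the member that separated the guides, while AREG and EREG, from the chromosome 4 cluster of ligand genes, did not on TMM-scaled counts. Each runs from 250 bases before to 50 bases after the transcription start (RefSeq, GRCh38.p14, 5′ to 3′ on the gene's strand), with motif matches on either strand in capitals. HBEGF is at chr5:140346554-140346853 (minus strand), AREG at chr4:74444886-74445185 (plus strand) and EREG at chr4:74364895-74365194 (plus strand).
HBEGF: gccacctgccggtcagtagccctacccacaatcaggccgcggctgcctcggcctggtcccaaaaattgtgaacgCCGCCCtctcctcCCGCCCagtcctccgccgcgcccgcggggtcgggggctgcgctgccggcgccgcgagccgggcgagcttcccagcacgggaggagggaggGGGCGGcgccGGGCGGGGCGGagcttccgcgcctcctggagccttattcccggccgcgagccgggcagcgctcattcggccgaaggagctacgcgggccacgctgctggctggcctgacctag
AREG: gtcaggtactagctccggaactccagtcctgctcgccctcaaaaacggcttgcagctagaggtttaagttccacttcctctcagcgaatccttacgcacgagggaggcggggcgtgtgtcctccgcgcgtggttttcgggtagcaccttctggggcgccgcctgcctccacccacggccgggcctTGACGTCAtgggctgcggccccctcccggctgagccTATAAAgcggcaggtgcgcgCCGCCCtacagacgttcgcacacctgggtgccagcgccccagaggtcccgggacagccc
EREG: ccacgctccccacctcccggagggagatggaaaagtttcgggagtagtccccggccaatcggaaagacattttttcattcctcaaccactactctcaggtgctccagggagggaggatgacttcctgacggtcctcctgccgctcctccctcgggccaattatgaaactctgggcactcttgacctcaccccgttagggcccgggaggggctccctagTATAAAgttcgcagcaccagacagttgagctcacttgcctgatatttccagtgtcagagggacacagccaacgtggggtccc
The capitals mark GGGCGG (SP1 box, in 45% of 35116 promoters of this length), TGACGTCA (CRE, in 1.85%) and TATAAA (the core promoter box, in 11.5%). HBEGF held 5 SP1 boxes and no TATAAA. AREG held 1 SP1 box, 1 TATAAA and the CRE, which begins 65 bases before the start, and EREG held 1 TATAAA, which begins 32 bases before the start. None of the 3 windows held TGANTCA (AP-1, in 7.71% of promoters), GCGNGGGCG (EGR, 9.43%), CCGGAAGT (ETS, 4.14%) or the SRF CArG box (1.29%). No searched motif overlaps another except adjacent SP1 boxes in HBEGF. The RefSeq promoter table used here matched 8 of the 10 members. SP1 boxes without TATAAA were not particular to HBEGF. Among members whose groups overlapped on TMM-scaled counts, BTC held 1 SP1 box and no TATAAA. A window of TGFA held 4 and a window of EGFR 3, also without TATAAA. EPGN and a further EGFR window held TATAAA and no SP1 box, and ERBB2 and a further TGFA window held neither of these 2 motifs. The AP-1 letters did occur in other members, with 2 matches in that further EGFR window and 1 in ERBB2. ERBB2 also held 2 ETS matches.

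The members sit at 7 separate places in the genome (GRCh38, GENCODE release 29). EPGN (ENSG00000182585, chromosome 4, 74308473 to 74315307), EREG (ENSG00000124882, 74365143 to 74388751), AREG (ENSG00000109321, 74445134 to 74455009) and BTC (ENSG00000174808, 74744759 to 74794686, minus strand) lie in a cluster of 486 kb, with 49.8 kb between EPGN and EREG, 56.4 kb between EREG and AREG and 290 kb between AREG and BTC. HBEGF lies on chromosome 5 (ENSG00000113070, 140332843 to 140346631, minus strand), TGFA on chromosome 2 (ENSG00000163235, 70447280 to 70554193, minus strand) and NRG1 on chromosome 8 (ENSG00000157168, 31639386 to 32767959). EGFR lies on chromosome 7 (ENSG00000146648, 55019021 to 55211628), ERBB2 on chromosome 17 (ENSG00000141736, 39687914 to 39730426) and ERBB3 on chromosome 12 (ENSG00000065361, 56076799 to 56103505). Exons of the ligand genes overlap no other annotated gene. Part of the receptor exons does, 186 bases of EGFR with EGFR-AS1, 765 bases of ERBB2 with MIEN1 and PGAP3, all on the opposite strand, and 31 bases of ERBB3 with a gene on the same strand. The strandedness of the libraries is not given in the sources used here, so reads from those stretches cannot be assigned with certainty.

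HBEGF, which encodes heparin-binding EGF-like growth factor, a ligand of EGFR and ERBB4, was lower under the HRAS guide in every library. Its counts were 1638, 1760 and 1819 in control replicates 1 to 3 and 1067, 1125 and 1402 in HRAS guide replicates 1 to 3. Scaled to library size it stood at 56.7, 63.8 and 60.2 CPM under the control guide and at 42.9, 38.4 and 43.1 CPM under the HRAS guide. Every control library was above every HRAS guide library, and the groups did not overlap. Means were 60.2 ± 3.54 and 41.5 ± 2.65 CPM (SD, n = 3), a log2 fold change of -0.54 ± 0.10 (SE, 95% interval -0.75 to -0.32), or a change of -31.1%.

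On TMM-scaled counts HBEGF ranked 18 of 19836 genes by p but did not pass (edgeR adjusted p = 0.269). No member passed in this fit, in which 0.0101% of all genes tested did, or 2 genes. At an unadjusted p under 0.05 there was 1 member, HBEGF, beside 3.34% of all genes, and with offsets 1 member beside 5.81%. With GC and length offsets HBEGF had nearly the same difference with a smaller error, -0.54 ± 0.07, and passed (edgeR adjusted p = 0.00830), as 0.19% of the 19489 genes did in that direction, 0.0103% in the other and 0.2% in all. Its level on that scale was 57.0, 64.2 and 60.0 CPM under the control guide and 42.8, 38.3 and 43.1 CPM under the HRAS guide. DESeq2 without offsets also called it (-0.54, DESeq2 adjusted p = 0.00341, with 0.134% of genes called lower), and limma-voom did not (limma adjusted p = 0.299). No other member was called in these fits. Within the sets of libraries that shared the sign of the GC trend, the HBEGF difference was -0.60 in the negative set (2 control libraries, 1 HRAS guide library) and -0.56 in the positive set (1 control library, 2 HRAS guide libraries). Each set has a single library of one guide, so these values have no test. A shared sign did not match the strength of the trend. In the positive set rho was 0.61 in the control library, against 0.27 and 0.06 in the HRAS guide libraries. In the negative set it was -0.46 and -0.21 in the control libraries, against -0.49 in the HRAS guide library. The other 9 genes ran from -0.17 (EPGN) to 0.15 (BTC) in the negative set and from -0.15 (ERBB2) to 0.28 (EGFR) in the positive set.

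**Figure D1:**
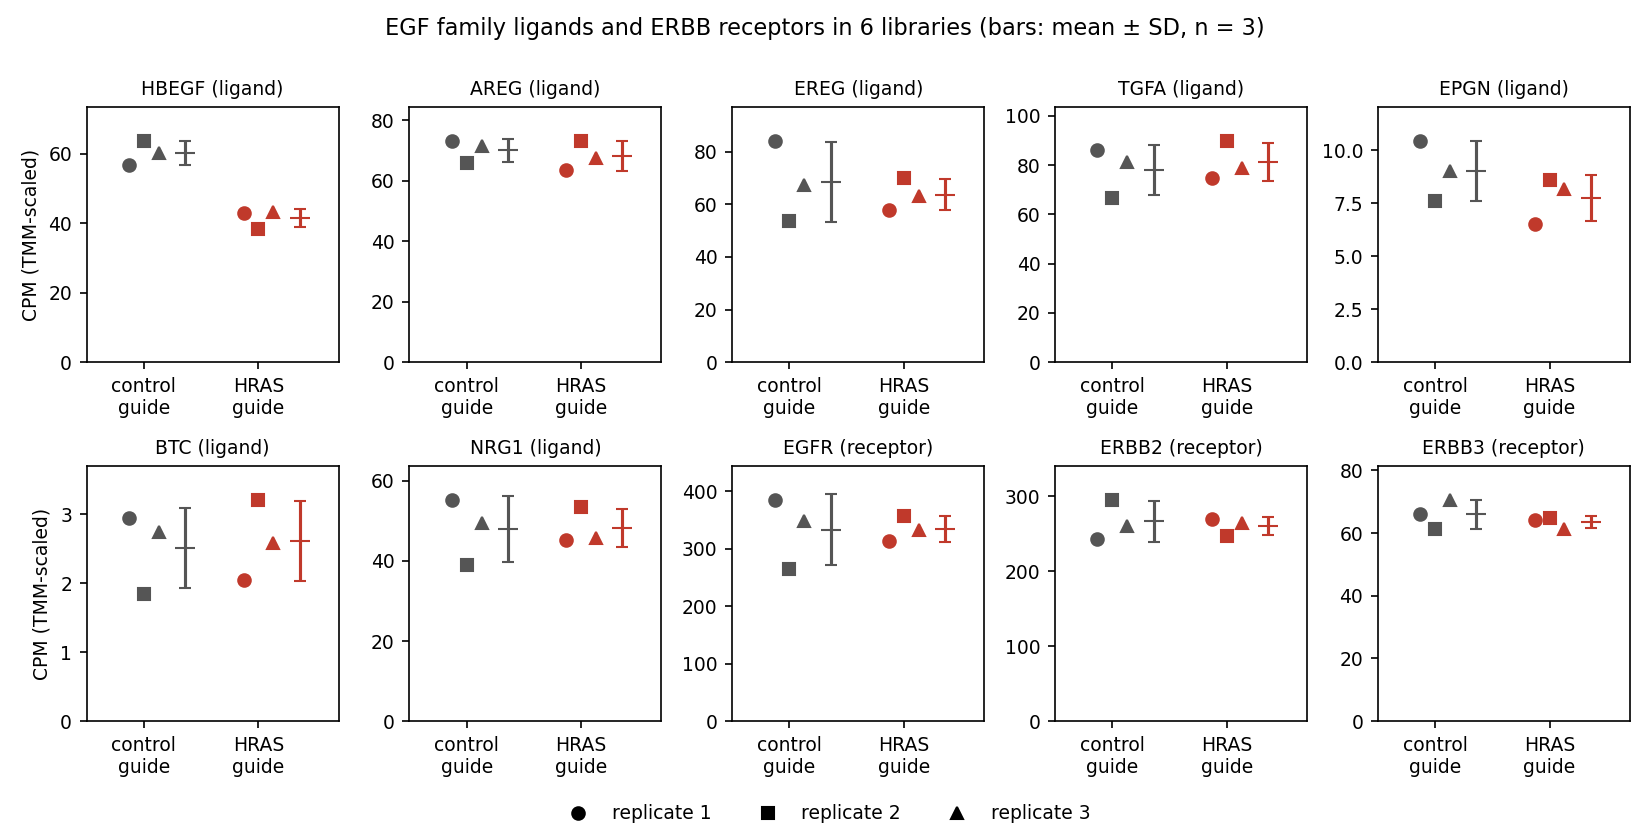
TMM-scaled CPM of each ligand and receptor gene (y axis, from 0) in the control guide (grey) and HRAS guide (red) libraries. Points are libraries and bars the mean ± SD of 3; the HBEGF points of the groups are separate (56.7 or more against 43.1 or less), while those of the other 9 genes overlap.

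AREG encodes amphiregulin, a ligand of EGFR. It stood at 73.0, 65.8 and 71.4 CPM under the control guide and at 63.6, 73.3 and 67.6 CPM under the HRAS guide. The groups overlapped, with the highest and the lowest library both in the HRAS guide group. The log2 fold change was -0.04 ± 0.09, with a 95% interval of -0.25 to 0.17 and an edgeR adjusted p of 1.00. With offsets it was -0.07 ± 0.06.

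EREG, which encodes epiregulin, a ligand of EGFR and ERBB4, spread more widely among the control libraries. It stood at 84.3, 53.8 and 67.4 CPM in the control libraries (replicates 1 to 3) and 58.0, 70.1 and 63.2 CPM under the HRAS guide. The HRAS guide libraries lay inside the control range. Its difference of -0.10 ± 0.15 had a 95% interval of -0.44 to 0.24. With offsets the control values came together at 74.9, 65.5 and 65.4 CPM, the HRAS guide values at 60.7, 63.7 and 63.4 CPM lay below them, and the difference was -0.13 ± 0.06 (95% interval -0.27 to 0.01, edgeR adjusted p = 0.870).

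EPGN, which encodes epigen, a further EGFR ligand, was a low-abundance gene, at 10.5, 7.61 and 9.03 CPM under the control guide and 6.52, 8.57 and 8.17 CPM under the HRAS guide. HRAS guide replicate 1 was lowest and control replicate 1 highest, with the others mixed. The difference was -0.22 ± 0.16 (95% interval -0.56 to 0.13), and with offsets -0.24 ± 0.11 (-0.49 to 0.01, edgeR adjusted p = 0.870). After the offsets its groups did not overlap either, at 9.83, 8.52 and 8.84 CPM against 6.66, 8.12 and 8.23 CPM.

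Groups that did not overlap, with lower values under the HRAS guide, were thus found for 1 of 7 ligands on TMM-scaled counts, beside 4% of all genes tested. With offsets they were found for 3 of 7 (HBEGF, EREG and EPGN), beside 6.28%. For EREG and EPGN the separation came without a call.

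TGFA encodes transforming growth factor alpha, an EGFR ligand. It stood at 86.1, 66.7 and 81.3 CPM under the control guide and 74.9, 90.0 and 78.9 CPM under the HRAS guide, a difference of 0.06 ± 0.12 (95% interval -0.20 to 0.32). Control replicate 2 was lowest and HRAS guide replicate 2 highest. The offsets widened its control spread, from an SD of 10.1 to 18.8 CPM. Its median transcript, whose GC content the offsets use, has 59.1% GC, while its longest transcript has 45.9%. With GC content and length of the longest transcript in the offsets, an alternative chosen after seeing the data, TGFA had a smaller error (0.06 ± 0.06) than with the median transcript (0.07 ± 0.16).

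NRG1 encodes neuregulin, the ligand of ERBB3 and ERBB4 in the set. It stood at 55.3, 39.1 and 49.5 CPM under the control guide and at 45.2, 53.6 and 45.8 CPM under the HRAS guide. Control libraries held both the highest and the lowest value, and the difference was 0.01 ± 0.14 (95% interval -0.29 to 0.31), or -0.01 ± 0.09 with offsets. BTC, which encodes betacellulin, had 51 to 94 counts per library and stood at 2.94, 1.85 and 2.74 CPM against 2.05, 3.21 and 2.58 CPM. Its difference of 0.06 ± 0.23 had the widest interval of the 10 genes, -0.46 to 0.58. With offsets it was 0.04 ± 0.18.

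EGFR is the receptor of most of the ligands above. It stood at 385, 265 and 348 CPM in the control libraries and 313, 357 and 332 CPM under the HRAS guide. All 3 HRAS guide libraries lay inside the control range, which control replicates 1 and 2 set. Means were 333 ± 61.6 and 334 ± 22.0 CPM (SD, n = 3), a difference of 0.01 ± 0.13 with a 95% interval of -0.28 to 0.29. Offsets left the control spread of EGFR as wide (332 ± 67.9 CPM) and gave 0.02 ± 0.12. With the longest transcript in the offsets its difference was 0.03 ± 0.06.

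ERBB2 stood at 243, 296 and 261 CPM under the control guide and at 270, 248 and 264 CPM under the HRAS guide. Control replicate 2, lowest for EGFR, was highest for ERBB2. The difference was -0.03 ± 0.09 (95% interval -0.23 to 0.17). After the offsets the 6 libraries ran from 254 to 271 CPM, and the difference was -0.01 ± 0.05 with an interval of -0.11 to 0.09, the narrowest of the 10 genes. ERBB3 stood at 66.0, 61.3 and 70.7 CPM against 64.1, 64.9 and 61.3 CPM, with groups that overlapped and a difference of -0.06 ± 0.09 (-0.26 to 0.15), or -0.06 ± 0.07 with offsets. None of the receptors passed (edgeR adjusted p = 1.00 for each).

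**Figure D2:**
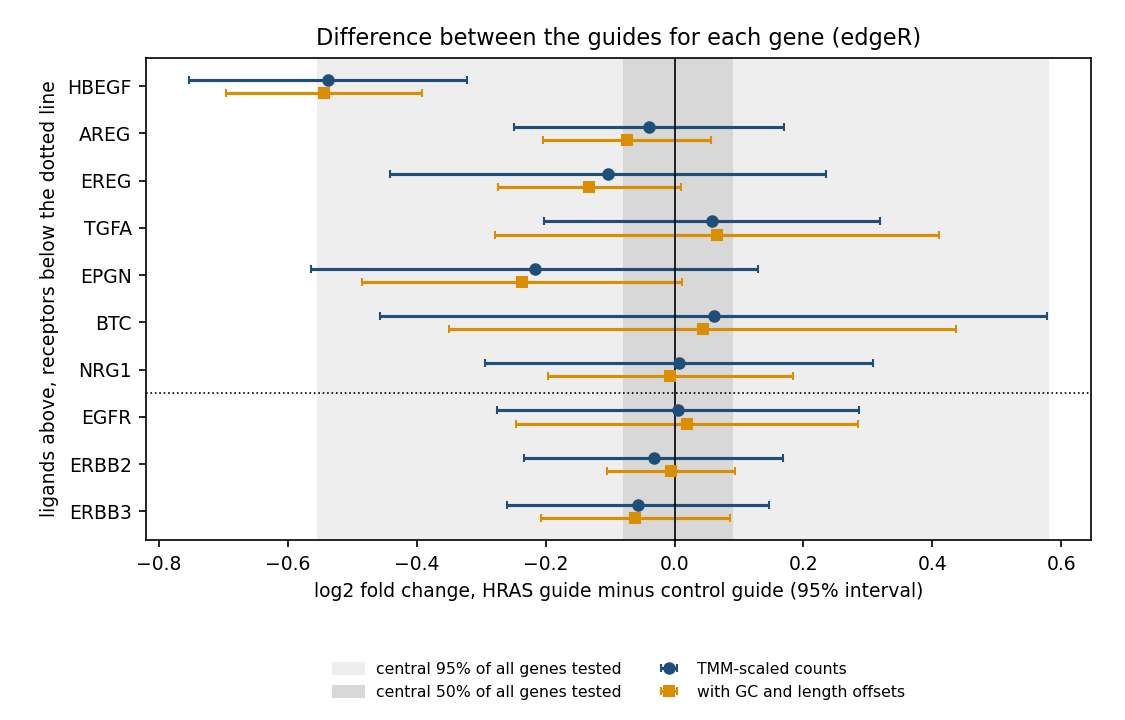
Log2 fold change (x axis, HRAS guide minus control guide, bars 95% intervals) of the 7 ligands and 3 receptors, on TMM-scaled counts (circles) and with GC and length offsets (squares); shaded bands hold the central 50% and 95% of all genes tested. HBEGF (-0.54 on both scales) has the intervals that leave out 0, and the 3 receptors lie between -0.06 and 0.02.

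Set side by side, 4 of 7 ligands and 2 of 3 receptors had a negative difference, as had 10021 of the 19836 genes tested. The median was -0.04 for the ligands, -0.03 for the receptors and -0.0014 for all genes tested. With offsets 5 of 7 ligands and 2 of 3 receptors were negative, with medians of -0.07 and -0.01 beside -0.0002 for all genes. The medians of ligands and receptors were close, and the other 6 ligands lay between -0.22 and 0.06. HBEGF was also set against other members within each library. The log2 ratio of HBEGF to EGFR was -2.77, -2.06 and -2.53 under the control guide, against -2.87, -3.22 and -2.95 under the HRAS guide. That of HBEGF to AREG was -0.37, -0.05 and -0.25 against -0.57, -0.93 and -0.65. Neither ratio overlapped between the groups, with differences of -0.56 and -0.50. An exact two-sided permutation test gave p = 0.1 for each, the smallest that 3 libraries against 3 allow, and 0.1 adjusted over both. HBEGF had already separated the guides, and EGFR and AREG differed little (0.01 and -0.04). The ratios thus restate the HBEGF difference and add no separate test.

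Across libraries, irrespective of the guide, members with lower GC content in their longest transcripts tended to be low where the GC trend was positive. Control replicate 2, with the strongest positive GC trend, was the lowest library for 5 of the 10 genes (EREG, TGFA, BTC, NRG1 and EGFR) and the highest for 2 (HBEGF and ERBB2). Relative to the mean of the 6 libraries, it stood at -0.37 for BTC, -0.32 for EGFR, -0.29 for NRG1, -0.28 for EREG and -0.25 for TGFA on the log2 scale, and at 0.17 for ERBB2. The longest transcripts of those that were low have 36.1% (EREG) to 47.5% (EGFR) GC, and that of ERBB2 57.5%. Within that range the values did not follow the order of GC content, as EGFR stood lower than EREG. EPGN (39.6%) and AREG (45.3%) lay in the same range but stood at -0.12 and -0.07, with HRAS guide replicate 1 as their lowest library. The tendency held less well by the median transcript, where EGFR has 54.1% and TGFA 59.1% GC, above the median of genes tested, and ERBB2 has 60.0%. HBEGF, at 50.9% GC near the median of genes tested (50.1% for median transcripts), stood at 0.35 there, but at 0.18 and 0.27 in the other control libraries too. It was at -0.22, -0.37 and -0.21 in the HRAS guide libraries.

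**Figure D3:**
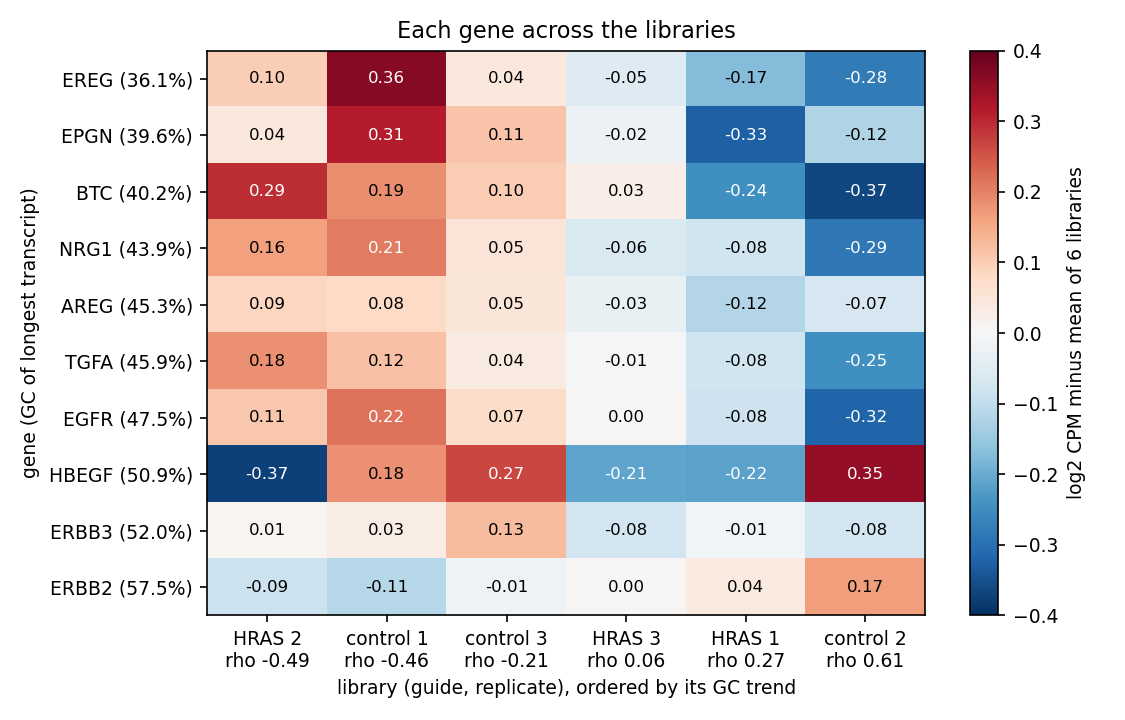
Log2 CPM of each gene minus its mean over the 6 libraries (colour and printed value), with genes ordered by the GC content of the longest transcript and libraries by their GC trend (Spearman's rho). The genes of lower GC content run from positive values on the left to negative values on the right, ERBB2 runs the other way, and HBEGF separates by guide, positive in each control library (0.18 to 0.35).

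Levels of different genes can be compared only per length, and the order depended on the length used. Per kb of the longest transcript, over all 6 libraries, AREG (55.7 ± 3.26 CPM per kb, SD) and ERBB2 (53.5 ± 3.79) were highest, with overlapping ranges. EGFR followed at 34.0 ± 4.21, then HBEGF (21.3 ± 4.46), TGFA (18.5 ± 1.91) and EREG (14.3 ± 2.32), whose ranges overlapped from each to the next. The place of HBEGF differed by guide: under the control guide it stood at 25.2 ± 1.49 CPM per kb and TGFA at 18.1 ± 2.33, and under the HRAS guide at 17.4 ± 1.11 and TGFA at 18.9 ± 1.81 (SD, n = 3). The range of ERBB3 overlapped that of EREG. ERBB3 (10.9 ± 0.59), NRG1 (8.11 ± 1.01), EPGN (7.02 ± 1.11) and BTC (0.91 ± 0.19) came last, and the ranges of NRG1 and EPGN overlapped. Per kb of the median transcript, which is much shorter for the receptors (574 bases against 5919 for ERBB3), ERBB2 (226 ± 16.1), EGFR (149 ± 18.5) and ERBB3 (113 ± 6.05) had means above all ligands, although the ranges of ERBB3 and TGFA overlapped. The lowest places, NRG1, EPGN and BTC, were the same under both lengths. In bulk RNA, fewer cells with a transcript and less of it per cell cannot be told apart.

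The remaining family genes were at low levels. EGF (0.10 ± 0.04 and 0.25 ± 0.16 CPM, SD, n = 3) and NRG3 (0.16 ± 0.12 and 0.14 ± 0.13 CPM) did not pass the filter on low counts. Of the 3 others, NRG4 stood at 3.83 ± 0.37 and 3.71 ± 0.22 CPM (-0.04 ± 0.15), and NRG2 had a difference of 0.22 ± 0.41 (0.35 ± 0.08 and 0.40 ± 0.11 CPM). ERBB4, the fourth receptor of the family, stood at 0.67 ± 0.28 and 0.68 ± 0.15 CPM. None of these 3 passed.

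Genes that release the ligands or hold them at the membrane gave no call: 0 of 12 passed in either direction, on TMM-scaled counts or with offsets, with a median of 0.01. Of all genes tested 0.0101% and 0.2% passed, so a short list without a call is not unlike other genes. None of the 12 had an unadjusted p under 0.05 on TMM-scaled counts, beside 3.34% of all genes. DESeq2 called none, beside 0.144%. Both also held for the 14 and 15 genes of the next lists. ADAM17, the main sheddase of HBEGF, AREG and TGFA precursors, stood at 47.1 ± 12.1 and 46.2 ± 5.19 CPM (-0.03 ± 0.17). RHBDF2, which encodes a partner that carries ADAM17 to the cell surface, had a difference of -0.13 ± 0.10. ADAM12 had the smallest p of the list, with a difference of 0.91 ± 0.42 from 0.22 ± 0.06 to 0.42 ± 0.04 CPM (edgeR adjusted p = 1.00), a level of a few counts per library. CD9, a membrane partner of the HBEGF precursor, was higher in each HRAS guide library than in any control library (103 ± 6.09 and 110 ± 1.86 CPM, 0.09 ± 0.08). Such groups, higher without overlap, were found for 2 of the 12 (CD9 and ADAM12), beside 4.81% of all genes tested. With offsets they were found for the same 2, beside 6%, and groups that were lower without overlap for 1, beside 6.28%.

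Among 14 genes for adaptors and kinases next to the receptors, none passed in either direction, beside the same small shares of all genes, with a median of -0.05. The difference was negative for 11 of the 14, beside 10021 of all 19836 genes tested. With offsets it was negative for 13, beside 9757 of 19489. Groups did not overlap, with lower values under the HRAS guide, for 1 of the 14 (GAB2), beside 4% of all genes. With offsets they did not overlap for 3 that were lower, GAB2 among them, beside 6.28%. GAB2, which encodes a docking protein, had the smallest p, at 15.7 ± 1.57 and 14.1 ± 0.26 CPM (-0.15 ± 0.11), and its relative GAB1 stood at -0.18 ± 0.19. GRB2, the adaptor that links the receptors to RAS activation, was at 174 ± 5.21 and 173 ± 6.11 CPM. Among 15 genes that restrain or sort the receptors, none passed either, with a median of -0.05. Of these 13 had a negative difference, beside 10021 of all 19836 genes tested, and with offsets 12. LRIG3 (-0.22 ± 0.13), which encodes a leucine-rich repeat membrane protein, and ERRFI1 (-0.16 ± 0.13), which encodes a feedback inhibitor of EGFR, had the smallest p. With offsets LRIG3 stood at -0.24 ± 0.07 and SOCS4 at 0.17 ± 0.06 (edgeR adjusted p = 0.593 and 0.676). On that scale groups did not overlap for 1 gene of the list that was lower (LRIG3), beside 6.28% of all genes. They did not overlap for 2 that were higher, SOCS4 among them, beside 6%.

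Genes known as transcription output of this pathway are a list that was chosen with earlier results of these data known. All 12 had a negative difference (11 of 12 with offsets), with a median of -0.27 beside -0.0014 for all genes. Groups did not overlap, with lower values under the HRAS guide, for 7 of them beside 4% of all genes tested, and with offsets for 4 beside 6.28%. On TMM-scaled counts none of the 12 passed, and 5 had an unadjusted p under 0.05, beside 3.34% of all genes. DESeq2 called 2 lower, beside 0.134%. With offsets 3 fell, beside 0.19% of all genes, and none rose, beside 0.0103%. Those that fell were FOSL1 (-0.61 ± 0.05, edgeR adjusted p = 0.000670), EGR1 (-0.38 ± 0.04, adjusted p = 0.00330) and IER3 (-0.33 ± 0.05, adjusted p = 0.0155). FOSL1 encodes an AP-1 subunit, EGR1 a zinc finger transcription factor and IER3 an early response protein. DUSP6, the gene of an ERK phosphatase, stood at 128 ± 12.5 and 102 ± 4.02 CPM (-0.33 ± 0.07 with offsets, adjusted p = 0.203). Not all of the list was low: CCND1 stood at -0.01 ± 0.09 (0.03 with offsets) and PHLDA1 at -0.01 ± 0.10. Leaving out a library, an alternative chosen after seeing the data, left 10 to 12 of the 12 negative. On TMM-scaled counts 3 were called without control replicate 2 (EGR1, FOSL1 and DUSP6) and none without any other library. With offsets, the calls ranged from 1 (FOSL1, without control replicate 3 or HRAS guide replicate 1 or 3) to 6 (without control replicate 2, with FOS, DUSP6 and MYC added). FOSL1 passed in each of those fits. Exons of DUSP6, IER3, PHLDA1, CCND1 and ETV4 overlap genes on the opposite strand, and those of ETV5 a gene on the same strand.

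**Figure D4:**
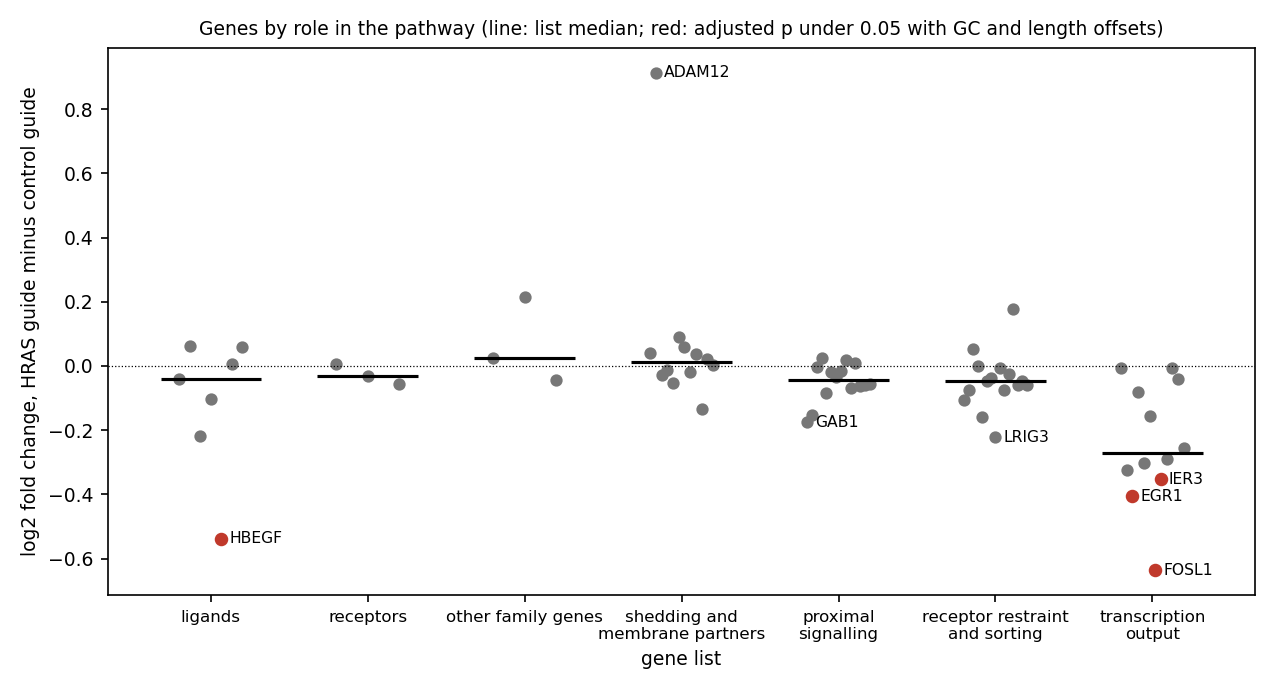
Log2 fold change (y axis, HRAS guide minus control guide, TMM-scaled counts) of each tested gene by its role, with list medians as lines and genes past the threshold with offsets in red. HBEGF, FOSL1, EGR1 and IER3 are the red points, and the medians of the receptor, shedding and signalling lists lie between -0.05 and 0.02.

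By centred log2 CPM over the 6 libraries, the profiles nearest to that of HBEGF among 10331 genes of at least 10 CPM were those of ENSG00000279806, DUSP5 and VEGFA. Their root mean square differences from HBEGF were 0.03, 0.05 and 0.05, where the median gene had 0.30. They were picked for a profile like that of HBEGF, so a lower value under the HRAS guide followed from the choice. Their differences were -0.55 ± 0.10, -0.53 ± 0.09 and -0.49 ± 0.08, and none passed on TMM-scaled counts. For ERBB3, the receptor of smallest p, the nearest profiles were those of CS, GPR157 and RAB28, at a root mean square difference of 0.02 each, where the median gene had 0.13.

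The size of the HBEGF difference was steadier than its call. Over 24 alternative analyses, all drawn from the same 6 libraries, it was negative in all, from -0.59 to -0.48, and passed in 9. Among those that passed, 1 with longest-transcript offsets (-0.54) was added after seeing the data. So was 1 with offsets and a covariate for the sign of the GC trend (-0.59). Without offsets it passed in 1 of 6 fits that left out a library, the one without control replicate 2 (edgeR adjusted p = 0.0298). With offsets it passed without control replicate 1 (0.00271) or 2 (0.000226). It did not pass without control replicate 3 (0.0885) or HRAS guide replicates 1 (0.0586), 2 (0.0714) or 3 (0.0763). The other 9 members passed in none of the 24 alternatives. The sign of the other ligands varied with the libraries. On TMM-scaled counts all 7 ligands were negative without control replicate 2 (median -0.12) or HRAS guide replicate 2 (median -0.11). Without control replicate 1 there were 3 negative (median 0.07), without HRAS guide replicate 1 also 3 (median 0.01), and with a covariate for the sign of the GC trend 2 (median 0.03). EGFR stood at -0.13 ± 0.07 without control replicate 2.

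**Figure D5:**
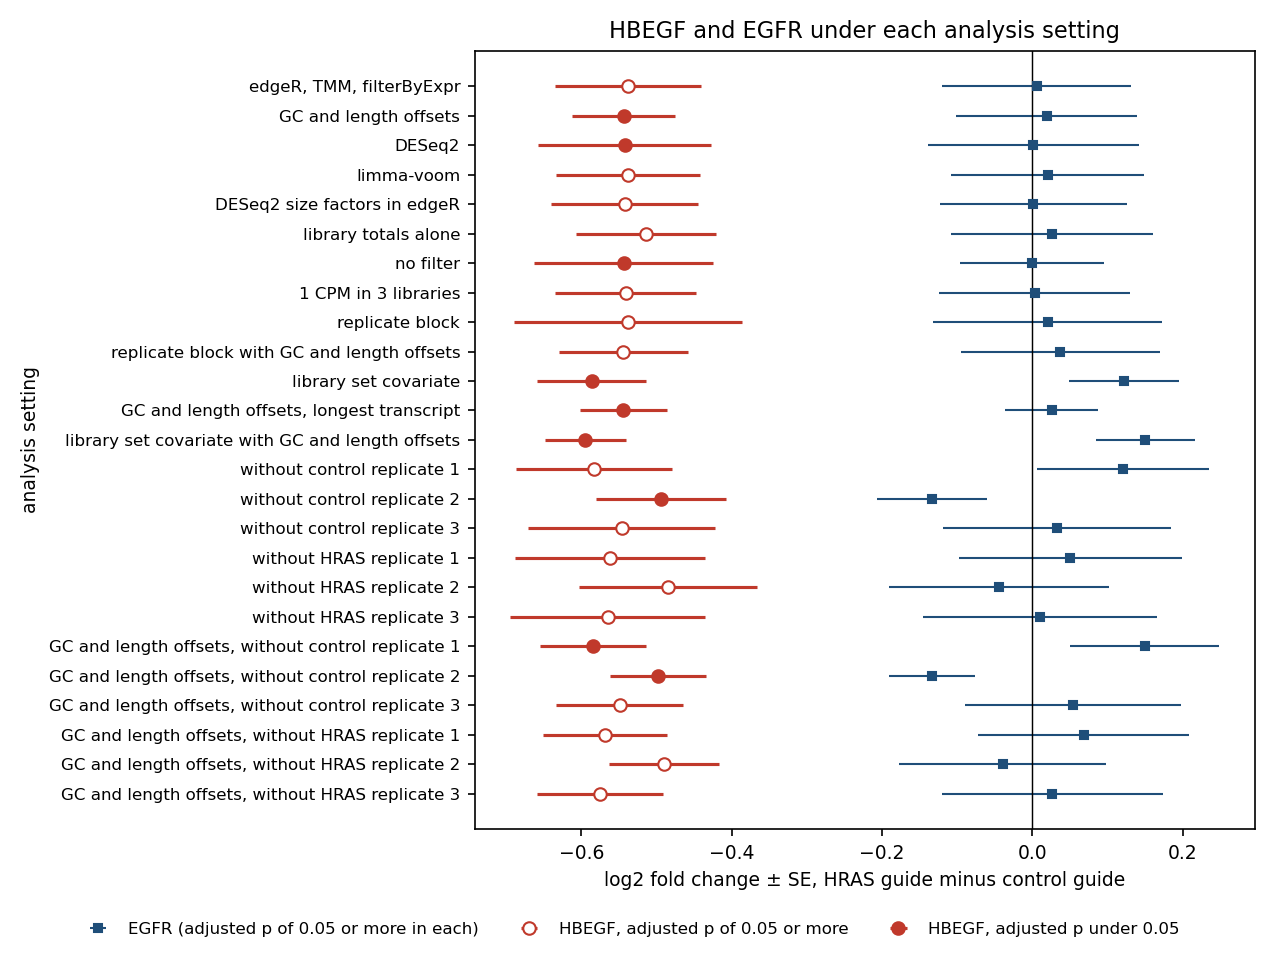
Log2 fold change ± SE (x axis) of HBEGF (circles, filled where the adjusted p is under 0.05) and EGFR (squares) under each analysis setting (y axis). HBEGF lies between -0.59 and -0.48 in every setting, and EGFR between -0.13 and 0.15.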

How the data were processed

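The authors deposited whole-number counts per gene for 6 libraries in a table of 60664 rows. The 1 row without values is not used. Columns were matched to libraries by guide and replicate number. Per the submitters' processing notes HISAT2, StringTie, DESeq2 and hg38 were used, without versions or roles. Nothing used here names the counting tool, annotation or strandedness. Symbols came from a table holding 60462 of the identifiers, and coordinates, transcript lengths and GC content from GENCODE release 29.

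Genes passing filterByExpr (19836, all 10 members among them) were scaled by TMM and tested with edgeR 4.0.16 (R 4.3.3) on group alone. Standard errors were recovered from the F statistic, and intervals are at 95%. Offsets came from a robust fit, library by library, of the deviation in log2 CPM (prior count 2) on a spline of median transcript GC content (5 df) and one of log10 length (4 df), over 19489 genes. Within-set differences use log2 of CPM plus 0.5. DESeq2 1.42.0 and limma 3.58.1 were alternatives. Chi-square per degree of freedom between libraries was 3.01 to 38.2, so none was a repeat deposit. The scripts were tested on simulated data.

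The members and lists were chosen with earlier results of these data known. Named genes are the members, HRAS, FTO, list genes past the threshold or else the 2 of smallest p, and the 3 nearest profiles to a ligand and a receptor. Other list genes given (ADAM17, CD9, GRB2, SOCS4, DUSP6, CCND1, PHLDA1 and the family genes) were chosen after their values were seen. FTO stood at 35.4 ± 3.03 and 31.2 ± 0.24 CPM (SD, n = 3), a difference of -0.19 ± 0.10 (SE). With offsets the difference was -0.20 ± 0.06 (edgeR adjusted p = 0.654). Every HRAS guide library was below every control library for FTO on both scales, as for 4% of all genes tested and 6.28% with offsets. The cause of this difference was not tested.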

Additional observations from a re-analysis of the deposited data

How the results depend on the processing

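The number of genes called, 2 on TMM-scaled counts, was 39 with GC and length offsets, 28 by DESeq2, 57 with no filter, 81 with a covariate for the sign of the GC trend, and 1 by limma-voom, with DESeq2 size factors or with a filter of 1 CPM in 3 libraries. The number of members called was 0, and 1 (HBEGF) with the offsets, by DESeq2, with no filter or with the covariate. Added after seeing the data, offsets from the longest transcript called 51 genes and the covariate with offsets 82, each with 1 member. Leaving out a library gave 1 to 24 genes without offsets and 7 to 129 with them, and 0 to 1 members. The number 129 came without control replicate 2. The cause of these changes was not tested.

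The median receptor difference ran from -0.12 to 0.0113 and the ligand median from -0.12 to 0.07 with a library left out. Signs turned for members near 0: AREG with the covariate (0.0085) and from -0.11 to 0.008 with a library left out, EREG with the covariate (0.0268) and from -0.25 to 0.0702, NRG1 with offsets (-0.0064) and from -0.12 to 0.12. TGFA ran from -0.11 to 0.22, BTC from -0.11 to 0.20, EGFR from -0.13 to 0.15 (-0.0001 with no filter) and ERBB2 from -0.10 to 0.0492. ERBB2 was 0.0074 with longest-transcript offsets and 0.0164 with the covariate and offsets. HBEGF, EPGN and ERBB3 kept their sign in all 24 alternatives.

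Deviations of same-numbered libraries correlated at -0.19, -0.29 and -0.06, so replicate numbers showed no positive pairing. Same-numbered libraries can differ in GC trend (rho 0.61 in control replicate 2, -0.49 in HRAS guide replicate 2). The correlations therefore cannot settle whether they shared a culture or batch. With the replicate block 1 gene and 0 members were called, and with the replicate block and offsets 5 genes and 0 members (NRG1 -0.0021, HBEGF edgeR adjusted p = 0.199). BTC had the fewest counts of the members, 51 to 94 per library; the part of depth in its wide interval was not tested.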
